A study of Mus musculus with 8 samples.

Results

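The 10 core circadian clock genes Arntl (also called Bmal1), Clock, Per1, Per2, Per3, Cry1, Cry2, Nr1d1, Nr1d2 and Dbp were followed in mouse hippocampus. They were picked by gene symbol, with earlier results of these data known, and all 10 were found among the 24527 gene rows of the deposited count table. All 10 passed the filter on low counts, which left 15434 genes for testing. The hippocampus came from 8 wild-type C57BL/6J males aged 20 weeks. Bisphenol A (BPA) is a building block of plastics with weak hormone-like activity. Mothers of the 4 BPA males ate 50 mg of it per kg of a low-phytoestrogen chow while pregnant and nursing, and mothers of the 4 controls ate that chow with 0 mg. From weaning, on postnatal day 21, every animal received the control chow. Each animal gave 1 RNA-seq library of polyadenylated RNA from whole hippocampus, in which fewer cells of a type and less RNA per cell cannot be told apart. The sources used here give neither the time of day of tissue collection nor each animal's litter. The p-values therefore measure the spread between these 8 animals, some of which may be siblings from 1 litter.

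The mammalian clock is a transcriptional feedback loop that runs in nearly every cell. BMAL1 (encoded by Arntl) and CLOCK form the positive arm: as a pair they bind E-box sequences and switch on the Per and Cry genes, whose proteins return to the nucleus and block them. The same pair drives Nr1d1 and Nr1d2, which encode the REV-ERB repressors that silence Arntl through ROR elements, and Dbp, which encodes a factor acting through D-boxes. In clock-bearing tissues Arntl therefore peaks when Dbp and the Nr1d genes are near their trough. The hippocampus has such a local clock, linked to time-of-day differences in memory and excitability.

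RefSeq promoter windows (GRCm38.p6, the assembly of mm10; 250 bases before to 50 after each annotated start) were matched by symbol for 9 of the 10 genes, in 13 windows. Per2 had no entry. The 4 stretches below each run over the 250 bases before a start, and they are shown because they hold the loop's own elements. The fifth is 30 bases just after a start of Arntl. Capitals mark a match, on either strand, to an E-box (CACGTG), an E-prime box (CACGTT), a D-box (TTATGNAA) or a ROR core (AGGTCA).
Per1 (chr11:69098699-69098948, plus strand): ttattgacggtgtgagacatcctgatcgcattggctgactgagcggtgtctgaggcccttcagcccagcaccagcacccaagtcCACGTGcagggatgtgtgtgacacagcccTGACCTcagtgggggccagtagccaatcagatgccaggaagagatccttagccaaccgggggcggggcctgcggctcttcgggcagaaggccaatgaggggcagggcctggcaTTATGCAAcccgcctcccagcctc
Per3 (chr4:151044666-151044915, minus strand): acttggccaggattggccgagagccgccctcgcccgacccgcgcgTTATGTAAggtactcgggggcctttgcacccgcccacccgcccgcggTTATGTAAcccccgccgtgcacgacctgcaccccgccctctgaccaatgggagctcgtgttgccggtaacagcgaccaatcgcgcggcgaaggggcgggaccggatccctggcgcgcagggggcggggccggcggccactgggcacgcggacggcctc
Cry1 (chr10:85185055-85185304, minus strand): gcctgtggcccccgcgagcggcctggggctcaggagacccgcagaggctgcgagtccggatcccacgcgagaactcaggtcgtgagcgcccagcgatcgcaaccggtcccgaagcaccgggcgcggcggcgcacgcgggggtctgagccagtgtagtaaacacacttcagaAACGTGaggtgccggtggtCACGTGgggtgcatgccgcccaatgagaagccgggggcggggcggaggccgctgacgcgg
Nr1d2 (chr14:18239107-18239356, minus strand): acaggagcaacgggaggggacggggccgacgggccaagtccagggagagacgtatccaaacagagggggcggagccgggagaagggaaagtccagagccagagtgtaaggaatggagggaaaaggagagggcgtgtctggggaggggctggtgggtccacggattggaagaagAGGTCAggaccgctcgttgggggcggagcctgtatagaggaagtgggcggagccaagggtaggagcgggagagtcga
Arntl (chr7:113207527-113207556, plus strand): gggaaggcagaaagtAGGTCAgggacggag

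Per3 held 2 D-boxes, with first bases at positions -205 and -158 from the annotated start (position 0). Per1 held an E-box at -166, a ROR core at -137 and a D-box at -24. Cry1 held an E-box at -60 with an E-prime box at -79. The E-box letters were in 2 of the 13 windows of these genes and in 7.15% of all 32841 windows of the same length. D-box letters were in 2 of the 13 windows against 3.39% of all, E-prime letters in 3 (Cry1, Cry2 and Nr1d1) against 4.69%, and ROR cores in 4 (Arntl, Clock, Per1 and Nr1d2) against 16.3%. The cAMP response element TGACGTCA was in 0 of the 13 windows and in 1.79% of all. E-box and E-prime box share their first 5 letters, and a palindromic match was counted once per place. A match describes letters and does not show that a factor binds there.

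Library totals were 27.1 to 40.8 M counts (M, mega) for the controls and 43.1 to 54.01 M for the BPA animals. Every BPA library was thus deeper than every control library, and depth and exposure cannot be told apart by group. The least abundant gene, Dbp, still had at least 254 reads in each library. Levels below are CPM, read counts scaled to library size with TMM factors, given per library. Hippocampal markers were present throughout: the 7 dentate granule cell markers summed to 384 to 538 CPM in controls and 496 to 539 CPM in BPA animals. Controls 1 and 4 (384 and 405 CPM) lay below the BPA range, and controls 2 and 3 (524 and 538 CPM) inside it. Some lists had every log2 fold change on one side of 0 (background: 50% of all genes above 0). All 7 dentate markers were above 0 (median log2 fold change 0.20) and all 5 CA1 markers below (-0.12). All 4 ependymal markers (-0.52) and all 7 choroid plexus markers (-1.57) were below 0 too, and both lists summed highest in control 2. The choroid plexus direction rests on that library, since the sums of the other controls lay inside the BPA range. Ependymal markers summed to 24.5 CPM in control 2, 12.1 to 14.8 CPM in the other controls and 8.48 to 16.4 CPM in BPA animals. None of these markers passed in edgeR, and their part in the clock gene values was not tested. The 7 markers of the suprachiasmatic nucleus and hypothalamus, the site of the master clock, summed to 7.28 to 9.81 CPM over all libraries. Most of that sum was Rgs16, at 6.08 to 8.65 CPM, which is also a thalamus marker. Only 3 of the 7 passed the filter on low counts, so the sum is a poor measure of this tissue. Choroid plexus markers summed to 201 to 295.9 CPM in controls 1, 3 and 4 but 3022 CPM in control 2, and to 160 to 346 CPM in BPA 1, 2 and 4 but 799 CPM in BPA 3. Many results that rest on these 2 libraries are therefore also given without 1 or both of them.

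Set per kilobase of exon, so that genes can be compared, the REV-ERB genes were the most abundant members. Exon lengths are merged over all GENCODE transcripts of a gene, whereas counting used the refGene annotation. The order below is therefore approximate. The mean level over 8 libraries was 22.8 CPM per kb for Nr1d1 and 19.7 CPM per kb for Nr1d2. Cry2 (15.6 CPM per kb) and Clock (14.2 CPM per kb) followed, then Per1 (9.94 CPM per kb), Per2 (6.07 CPM per kb), Cry1 (4.93 CPM per kb), Arntl (4.38 CPM per kb), Dbp (3.39 CPM per kb) and Per3 (2.53 CPM per kb). In this order the library ranges of neighbours overlapped except between Clock and Per1, Per1 and Per2, and Dbp and Per3. Clock was thus more abundant per kb than its partner Arntl, with no overlap of their library ranges.

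No clock gene passed the test between BPA and control. In edgeR's quasi-likelihood test 0 of the 10 members had an adjusted p under 0.05, against 0% of all 15434 genes. At an unadjusted p under 0.05 there was 1 member, Cry1, against 4.52% of all genes (2.22% higher and 2.3% lower in BPA animals). DESeq2 and limma-voom also called 0 of the 10, each with 1 member at an unadjusted p under 0.05. The log2 fold change was above 0 for 8 of 10 members, against 50% of all genes, with a median of 0.07 against 0.00 for all genes. With control 2 and BPA 3 left out together, 6 of 10 were above 0 and the median was 0.02. For every member the groups overlapped (background: 1.37% of genes had every BPA library above every control and 1.43% every one below).

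**Figure D1:**
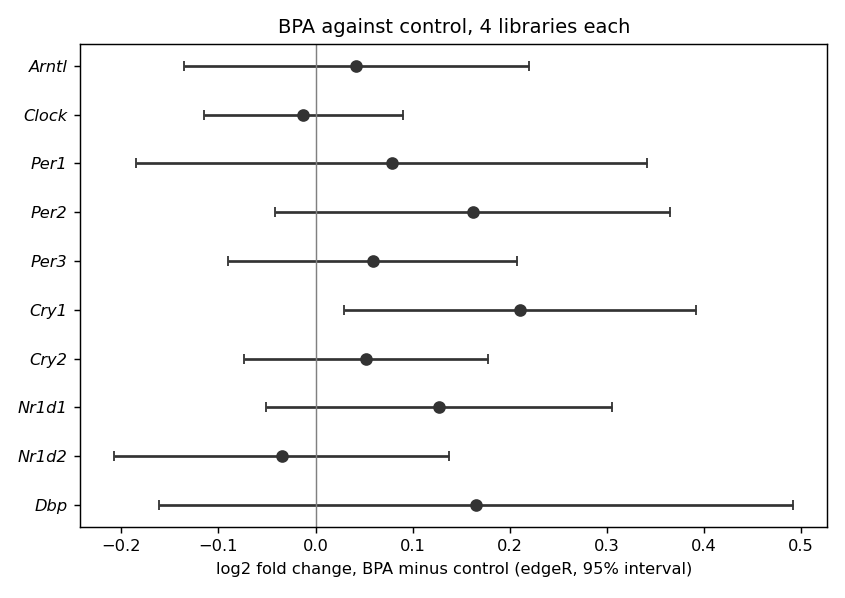
log2 fold change of each clock gene, BPA minus control (x axis), with its 95% interval from edgeR's quasi-likelihood fit over 4 control and 4 BPA libraries (points, estimates; bars, intervals; vertical line, no difference). Of the 10 intervals, that of Cry1 (0.03 to 0.39) lies above 0, and its adjusted p over all genes was 0.955.

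The positive arm did not differ detectably. Arntl (chr7:113207465-113314126, plus strand, mm10) was at 34.5, 29.6, 35.2 and 30.6 CPM in controls 1 to 4 and at 32.7, 36.3, 28.5 and 36.2 CPM in BPA 1 to 4. Both groups spanned nearly the same range, and the lowest library of all was BPA 3. The log2 fold change was 0.04 ± 0.08 (SE; edgeR adjusted p 0.967), or 1.03-fold (95% interval 0.910 to 1.16). Its sign changed without control 2 or without BPA 2. Clock (chr5:76209868-76304792, minus strand) was at 199, 193, 190 and 201 CPM in controls and at 188, 199, 184 and 205 CPM in BPA animals. It was the steadiest member, with a 1.12-fold spread over all 8 libraries, and its log2 fold change was -0.01 ± 0.05 (edgeR adjusted p 0.981). The sign of that value changed without control 4, BPA 1 or BPA 3.

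Among the negative arm, Cry1 and Per2 had the widest differences. Cry1 (chr10:85131700-85185064, minus strand), which encodes the stronger repressor of the BMAL1 and CLOCK pair, was at 15.7, 13.6, 15.7 and 16.2 CPM in controls and at 15.3, 18.1, 19.8 and 17.5 CPM in BPA animals. BPA 2, 3 and 4 lay above all controls, while BPA 1 lay below 3 of them. The log2 fold change was 0.21 ± 0.08 (edgeR p 0.0261, adjusted p 0.955), or 0.15 without BPA 3 and 0.10 without both control 2 and BPA 3. With log2 library total in the model it was 0.26 (edgeR p 0.0875). Per2 (chr1:91415982-91459324, minus strand) was at 38.54, 29.5, 31.8 and 34.3 CPM in controls and at 31.7, 41.1, 41.1 and 36.3 CPM in BPA animals. Control 1 exceeded both BPA 1 and BPA 4. Its log2 fold change was 0.16 ± 0.09 (edgeR adjusted p 0.955), or 0.03 ± 0.15 with log2 library total in the model and 0.06 without control 2 and BPA 3. Leaving out single libraries gave 0.10 (without control 2) to 0.24 (without control 1).

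Per1 (chr11:69095217-69109960, plus strand), a fast-responding member that synaptic activity and glucocorticoids also induce, was at 59.8, 40.9, 66.8 and 50.3 CPM in controls and at 54.6, 59.9, 63.5 and 52.0 CPM in BPA animals. Control 2 was the lowest and control 3 the highest, so the BPA values lay inside the control range. The log2 fold change was 0.08 ± 0.12 (edgeR adjusted p 0.962), and -0.04 without control 2. Activity-induced genes moved in the same library: the summed level of the 10 fixed ones was 337 CPM in control 2, against 484 to 637 CPM in the other controls and 416 to 652 CPM in BPA animals. Their part in the Per1 value was not tested.

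Per3 and Cry2 varied little. Per3 (chr4:151003652-151044665, minus strand) was at 26.2, 23.3, 21.3 and 24.3 CPM in controls and at 22.6, 25.6, 25.1 and 25.9 CPM in BPA animals, a log2 fold change of 0.06 ± 0.07 (edgeR adjusted p 0.957). It was -0.04 ± 0.11 with log2 library total in the model, and 0.01 (without control 3) to 0.11 (without control 1) on leaving out single libraries. Cry2 (chr2:92403646-92434043, minus strand), the other cryptochrome, was at 101, 89.0, 99.5 and 98.2 CPM in controls and at 97.2, 99.1, 111 and 94.9 CPM in BPA animals. Its log2 fold change was 0.05 ± 0.06 (edgeR adjusted p 0.957), and -0.04 without control 2 and BPA 3.

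The REV-ERB genes went opposite ways by small amounts. Nr1d1 (chr11:98767932-98775333, minus strand) was at 62.8, 76.5, 66.3 and 62.2 CPM in controls and at 71.3, 73.3, 83.7 and 64.3 CPM in BPA animals, a log2 fold change of 0.13 ± 0.08 (edgeR adjusted p 0.955). Leaving out single libraries gave 0.06 (without BPA 3) to 0.20 (without control 2). Its exons overlap 263 bases of Thra on the opposite strand, and whether reads were counted by strand is unknown, so its counts are uncertain. Thra itself ranged from 533 to 574 CPM among controls and from 562 to 653 CPM among BPA animals. Nr1d2 (chr14:18204054-18239127, minus strand) was at 107, 116, 96.9 and 111 CPM in controls and at 98.7, 104, 124 and 94.97 CPM in BPA animals. BPA 3 was the highest and BPA 4 the lowest of all libraries. The log2 fold change was -0.03 ± 0.08 (edgeR adjusted p 0.977), and its sign changed without control 2 or BPA 4.

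Dbp (chr7:45705088-45710203, plus strand), an output gene known for a wide daily rhythm, was at 9.74, 9.27, 8.20 and 11.1 CPM in controls and at 10.6, 9.35, 14.5 and 8.37 CPM in BPA animals. BPA 3 stood above all other libraries, and the other BPA animals fell within the control range. The log2 fold change was 0.17 ± 0.15 (edgeR adjusted p 0.957), or 1.12-fold (95% interval 0.894 to 1.41). It was -0.01 without BPA 3 and 0.35 ± 0.24 with log2 library total in the model. Dbp shares 539 exon bases with Sphk2 on the opposite strand. Sphk2 was at 12.03 CPM in BPA 3, inside the 9.30 to 14.1 CPM of the other libraries. Arntl and Cry2 also overlap opposite-strand genes, over 33 and 295 bases.

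**Figure D2:**
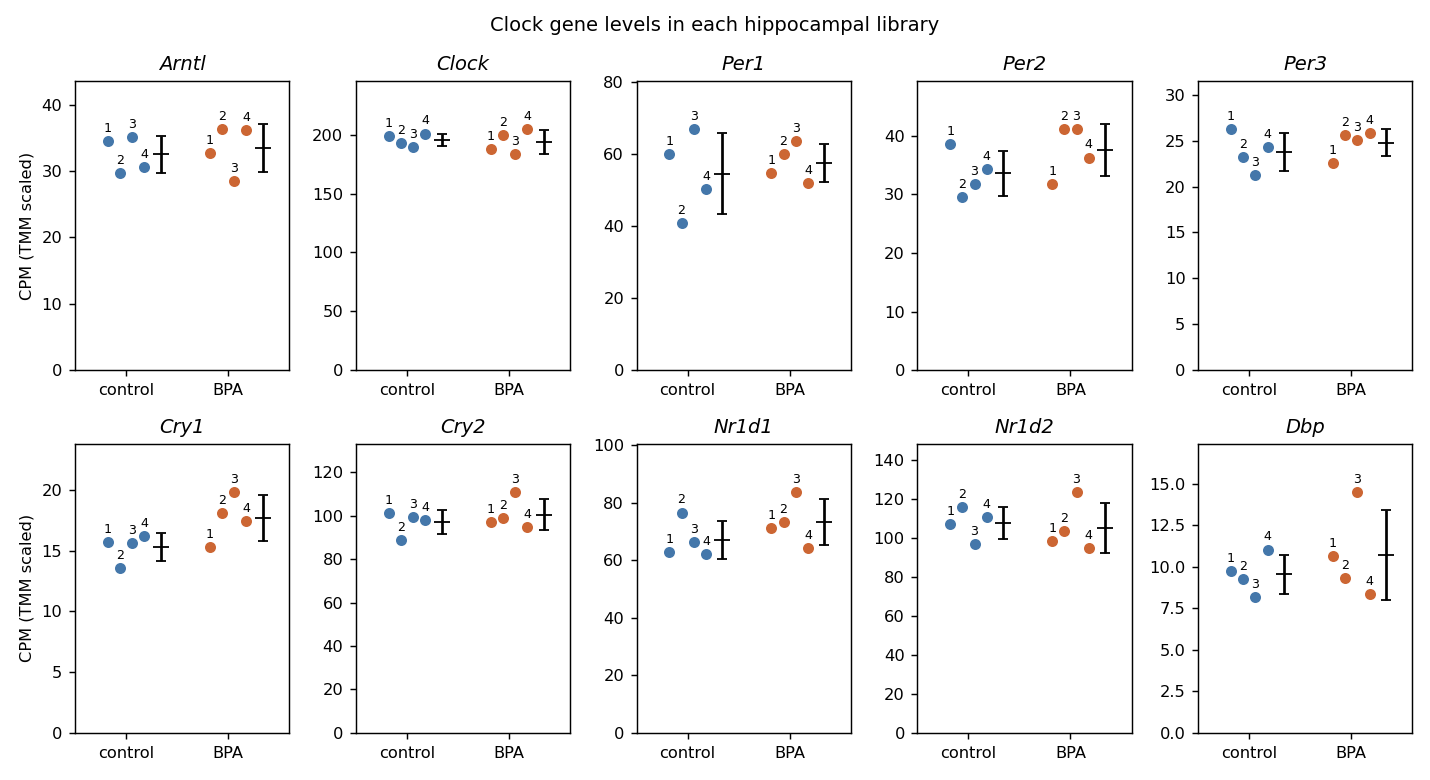
CPM with TMM scaling (y axis, from 0) of the 10 clock genes in 4 control and 4 BPA libraries; each point is 1 animal with its replicate number, and the black mark and bar beside each group are its mean and SD. Groups overlap for every gene, and BPA 3 stands out for Dbp at 14.5 CPM.

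The members differed in how far they moved between animals of the same group. Over all 8 libraries Dbp had the widest spread, an SD within groups of 0.27 on the log2 scale and a 1.77-fold range over the 8 libraries. Per1 followed (SD 0.24, 1.63-fold), then Per2 (SD 0.17, 1.39-fold). Clock was the narrowest at 0.06 and Cry2 next at 0.09. The SD of Dbp stood at percentile 86.0 of all tested genes and that of Clock at percentile 14.1. The first place of Dbp rested mainly on BPA 3. Without that library its SD was 0.18 and its range 1.35-fold, and Per1 was the widest (SD 0.25). Without BPA 4, Per1 was also first, though by little (SD 0.249 against 0.247 for Dbp). Per1 in turn had an SD of 0.16 without control 2.

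One animal was at an end of the range for most clock genes, though none of them passed the outlier check given below. BPA 3 had the highest level of 6 members (Per2, Cry1, Cry2, Nr1d1, Nr1d2 and Dbp) and the lowest of 2, Arntl and Clock, the 2 genes of the positive arm. For Per2 it matched BPA 2 at 41.1 CPM. Over all tested genes BPA 3 was highest for 12.5% and lowest for 13.4%, but the members vary together and are not independent draws. Its Dbp lay 0.54 above the 8-library mean on the log2 scale and its Arntl 0.20 below. The log2 ratio of Dbp to Arntl was -0.97 in BPA 3, and between -2.11 (BPA 4) and -1.47 (control 4) in the other 7. Activity-induced genes also summed highest in BPA 3, at 652 CPM, with control 1 next at 637 CPM. Their part in this profile was not tested.

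Control 2 showed a different profile. It was the lowest library for Per1, Per2, Cry1 and Cry2, with Per1 0.44 below the 8-library mean on the log2 scale, yet second highest for Nr1d1 and Nr1d2. Both libraries were the highest of their group in choroid plexus markers, all 7 of which were detected. Control 2 had the larger amount (Ttr 1712 CPM against 389 CPM in BPA 3), and Dbp there was 9.27 CPM, within the range of the other controls. The part of choroid plexus tissue in either profile was not tested. Endothelial markers also summed highest in BPA 3, at 99.1 CPM against 72.2 to 91.7 CPM elsewhere. Most of that sum was Slco1a4 (63.8 CPM), which was highest in BPA 3, as were Pecam1 and Ly6c1. Cldn5 was not (9.10 CPM in BPA 3 against 10.7 CPM in BPA 1).

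**Figure D3:**
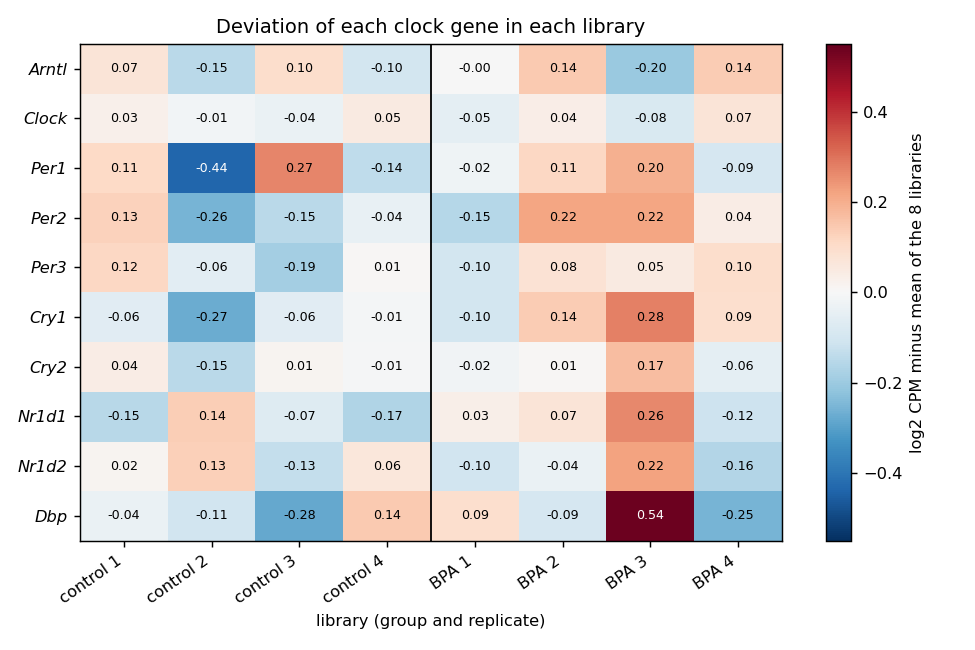
Each cell is a clock gene's log2 CPM minus its mean over the 8 libraries (colour scale, with the value printed), for genes in rows and libraries in columns; the line separates controls from BPA animals. The BPA 3 column has Dbp at 0.54 and Arntl at -0.20, and the control 2 column has Per1 at -0.44.

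The relation between positive arm and output genes was measured across the 8 libraries, which share 1 scaling and differ in depth. Arntl and Dbp were opposed, with Pearson's r of -0.75 (two-sided exact permutation p = 0.0210, adjusted over 45 pairs 0.166) and Spearman's rho of -0.62 (exact permutation p = 0.115, adjusted 0.647). The relation did not pass the threshold after adjustment. With values centred on their group means r was -0.84 (exact permutation p = 0.0243 within groups, adjusted 0.273). Without control 2 and BPA 3, the libraries farthest from the median Arntl level, r was -0.84 over 6 libraries. Without BPA 3 alone it was -0.57 (exact permutation p = 0.196), and without control 2 alone -0.93. The value thus leaned on BPA 3, but its sign held with each library left out.

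Arntl against Nr1d2 gave the largest r in size of the 45 pairs, -0.86 (exact permutation p = 0.00761, adjusted 0.166; rho -0.81, exact permutation p = 0.0218, adjusted 0.327). Leaving out single libraries gave -0.91 to -0.77, and leaving out control 2 and BPA 3 gave -0.59. Nr1d2 and Dbp varied together at r = 0.75 (exact permutation p = 0.0256, adjusted 0.166; rho 0.67), but r was 0.47 without BPA 3. Arntl with Clock had r = 0.55 (exact permutation p = 0.157), 0.28 without BPA 3, and 0.16 without both control 2 and BPA 3.

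**Figure D4:**
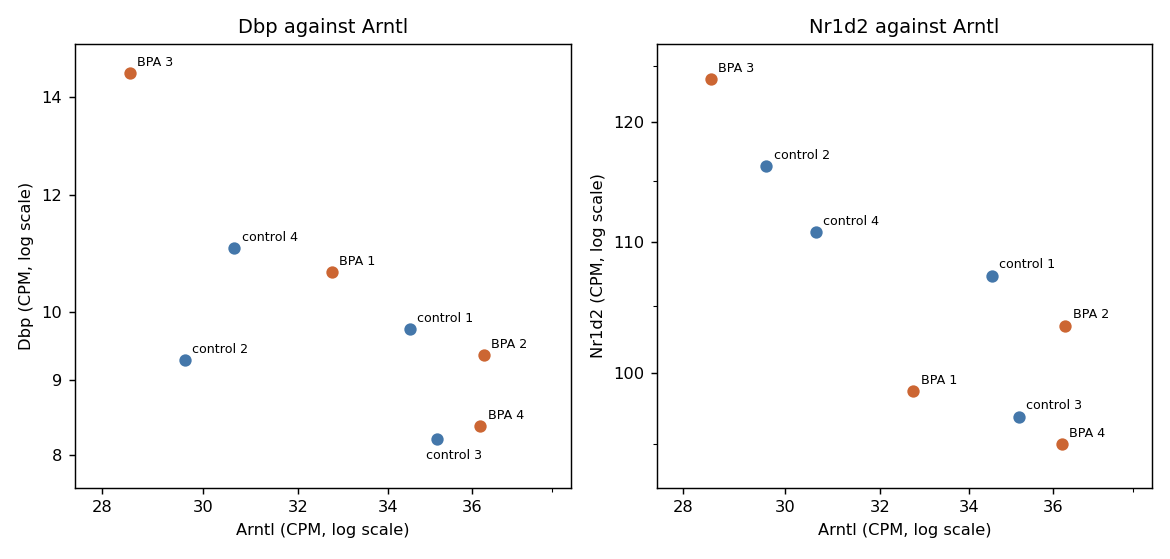
CPM of Dbp (left) and Nr1d2 (right) against Arntl, both axes on log scales, 1 labelled point per library (blue, control; orange, BPA). Libraries with less Arntl tended to have more Dbp and Nr1d2 (r = -0.75 and -0.86), with BPA 3 at the upper left and control 2 off the Dbp trend at 9.27 CPM.

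Within the negative arm the pairs of Per and Cry genes ranged widely, and none passed after adjustment. The lowest were Per1 with Per3 (r = -0.01) and Per3 with Cry2 (r = 0.25). Per2 and Cry1 had r = 0.86 (exact permutation p = 0.00486, adjusted 0.166) and rho = 0.93 (exact permutation p = 0.00223, adjusted 0.100). Their r was 0.78 to 0.95 on leaving out single libraries, and 0.71 without both control 2 and BPA 3. Per1 with Cry2 had r = 0.80 (exact permutation p = 0.0240, adjusted 0.166) and Per2 with Per3 r = 0.78 (exact permutation p = 0.0271, adjusted 0.166). Against Dbp, r was 0.15 for Per1, 0.40 for Per2, 0.21 for Per3, 0.49 for Cry1 and 0.68 for Cry2. Without BPA 3 the values were -0.27, -0.02, 0.10, -0.15 and 0.14 in the same order. Of the 45 pairs, 31 had a positive r and 14 a negative one, 8 had an unadjusted p under 0.05 and 0 passed after adjustment (3 and 0 by rho). The sign of r changed for 14 pairs without BPA 3. Over all ways of leaving out 1 library, r took both signs for 23 pairs. Without BPA 3, Arntl had r = 0.77 with both Per1 and Cry1 and 0.68 with Per2, where r over 8 libraries was 0.36, 0.05 and 0.17. These values leaned on control 2. Without both control 2 and BPA 3, r was 0.52 with Per1, 0.535 with Cry1 and 0.48 with Per2.

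**Figure D5:**
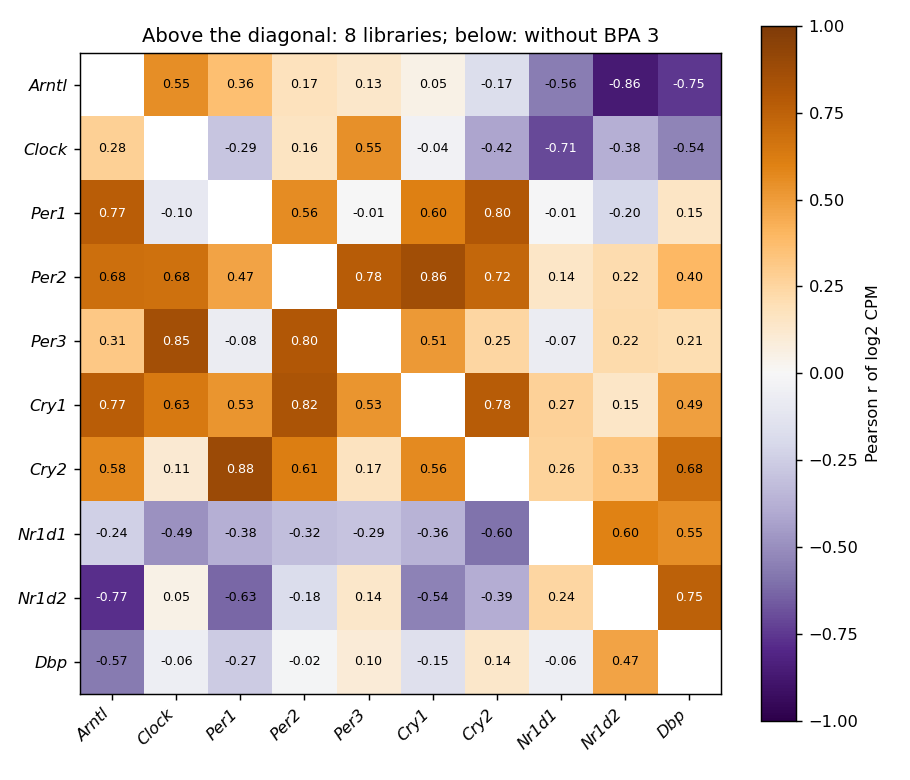
Pearson's r of log2 CPM for each pair of clock genes (colour scale, with the value printed), above the diagonal over all 8 libraries and below it over the 7 libraries without BPA 3. Arntl is negative with Nr1d2 in both triangles (-0.86 and -0.77), whereas Arntl with Cry1 goes from 0.05 to 0.77. Arntl with Cry1 had r = 0.535 without both control 2 and BPA 3 (not drawn).

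Among the 10939 genes with a mean of at least 5 CPM, the members were ranked by r with Dbp over the 8 libraries, as a description. Of the 10938 genes other than Dbp, Nr1d2 stood at rank 183 from the top, Cry2 at 356, Nr1d1 at 917 and Cry1 at 1317, while Arntl stood at rank 300 from the bottom. These places leaned on BPA 3. Without it, r with Dbp was 0.47 for Nr1d2, 0.14 for Cry2, -0.06 for Nr1d1, -0.15 for Cry1 and -0.57 for Arntl. Ranked by r with Arntl, Nr1d2 was at rank 75 from the bottom and Dbp at 306. The non-members closest to Dbp were Zfp46 (r = 0.98), Kcnj3, a potassium channel subunit (0.94), Acox3, a peroxisomal oxidase (0.94), Ssbp1 (0.94) and Lrrcc1 (0.93), and the most opposed were Txlng (-0.97), Irf3 (-0.97) and Dtx4 (-0.96). Closest to Arntl were Fam163a (0.98), Rgl1 (0.97), Arhgap35 (0.97), Specc1 (0.96) and the RNA editing enzyme Adar (0.96), and most opposed Slc23a2, a vitamin C transporter (-0.99), Maoa, which breaks down serotonin and noradrenaline (-0.96), and Ednrb (-0.96). Kcnj3, Acox3, Txlng, Irf3 and Adar overlap a gene on the opposite strand. These r values rest on 8 libraries that share a scaling, and BPA 3 enters each of them.

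Of 27 other clock pathway genes, all tested, 0 passed by edgeR, 14 were higher and 13 lower in BPA animals, and 4 had an unadjusted p under 0.05 (background: 50% of all genes above 0 and 4.52% at that p). Their median log2 fold change was 0.00. The E-box repressors were Bhlhe40 (0.10 ± 0.06) and Ciart (0.28 ± 0.21) among 4 members. Ciart, a clock repressor driven through E-boxes, was at 6.15, 6.13, 5.78 and 7.01 CPM in controls and at 5.90, 7.11, 12.1 and 5.42 CPM in BPA animals. BPA 3 was again the highest, and the other 7 libraries lay between 5.42 and 7.11 CPM. The D-box factors had Hlf at 0.13 ± 0.09 and Nfil3, a D-box repressor opposed in phase to Dbp, at 0.19 ± 0.18. Nfil3 was at 8.97, 6.21, 10.4 and 7.77 CPM in controls and at 9.84, 10.01, 6.38 and 11.7 CPM in BPA animals. BPA 3 was the lowest of its group, but control 2 was lower still.

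Of the 8 genes that set PER and CRY turnover, 0 passed and 6 were below 0, as were 7711 of all 15434 genes, with a median of -0.03. Gsk3b, a kinase, averaged 372 ± 17.1 CPM among controls against 345 ± 8.90 CPM among BPA animals (SD, n = 4 each; log2 fold change -0.11 ± 0.05, edgeR adjusted p 0.955). Of the 3 interactors, Nono, an RNA-binding partner of PER, averaged 147 ± 3.70 CPM among controls against 162 ± 6.78 CPM among BPA animals (0.13 ± 0.04, edgeR p 0.00987, adjusted p 0.955), and Wdr5 was at 0.12 ± 0.05. For both, every BPA library was above every control, as for 1.37% of all genes. The BMAL1 and CLOCK paralogues gave 0.05 ± 0.05 for Npas2 and -0.11 ± 0.12 for Arntl2, the ROR receptors -0.04 ± 0.06 for Rora and 0.04 ± 0.07 for Rorb, and the outputs -0.03 ± 0.05 for Noct and -0.02 ± 0.05 for Nampt.

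Inputs to the clock were set beside these values. All 13 glucocorticoid-induced genes were above 0, against 50% of all genes (median 0.13; 0 called by edgeR). At an unadjusted p under 0.05 there were 3, all higher, against 2.22% of all genes, with Fkbp5 at 0.13 ± 0.04 and Mt2 at 0.37 ± 0.14. Their summed level was 806 to 957 CPM in controls and 881 to 1074 CPM in BPA animals. Genes of 1 list can vary together and are not independent. Of 10 activity-induced genes 8 were above 0, against the same 50% (median 0.08, 0 called), with Ier2 at -0.19 ± 0.16 and Egr1 at 0.16 ± 0.17. Of 8 temperature-responsive genes 4 were above 0 (median 0.00, 0 called), with Hspa1b at -0.30 ± 0.14 and Hspa1a at -0.23 ± 0.16. The cold-inducible RNA-binding genes Cirbp and Rbm3 are named after their values were seen. Cirbp was at 44.2 CPM in BPA 3 and 20.1 to 32.9 CPM in the other 7 libraries, and Rbm3, which overlaps an antisense gene, at 49.2 CPM in BPA 3 and 18.5 to 38.2 CPM in the others. For both, the second highest library was control 4 and the lowest BPA 4, which for Dbp stood second highest and second lowest. The rest of the list did not follow them: in BPA 3, Hsph1 (435 CPM) and Hspa8 (1576 CPM) were the lowest of all libraries. Hspa1a, Hspa1b, Hsp90aa1 and Dnajb1 in BPA 3 lay inside the range of the other libraries. The part of temperature, glucocorticoids or sampling time in the clock gene values was not tested.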

How the data were processed

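The authors deposited 1 table of raw read counts (24527 genes, 8 libraries), with no normalization. The submitters' processing notes name mm10, Trimmomatic 0.32, STAR 2.3.0e, featureCounts 1.5.0 and DESeq2 with no version number. Per the file headers, the annotation was refGene, and per the labels' protocols the kit keeps strand (ScriptSeq v2). Whether counting used strand is not known from these sources. Columns were assigned to animals through the code shared with the sample titles.

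The main test was edgeR 4.0.16 (R 4.3.3), quasi-likelihood, with filterByExpr, TMM scaling, 1 group term, two-sided p and Benjamini-Hochberg adjustment over all 15434 genes at 0.05. Standard errors come from the test statistic. Relations between members used log2 CPM (prior count 2) and all 40320 permutations of 8 libraries (576 within groups). No 2 replicates agreed within counting noise (12 comparisons, chi-square over its degrees of freedom 10.2 to 24.8). DESeq2 1.42.0, limma-voom (limma 3.58.1), other scalings, no filter, depth, thinning, a replicate block and leaving out libraries were tried. Gene positions, exon lengths and overlaps come from GENCODE vM21 (mm10).

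The members and lists were chosen with earlier results of these data known. Genes named are the 10 members, the 2 genes with the smallest p in each role of the other lists, and the 5 genes with the highest and the 3 with the lowest r with Dbp and with Arntl among genes of at least 5 CPM (1 predicted gene passed over). Cirbp, Rbm3, Hsph1, Hspa8, Hsp90aa1, Dnajb1, Thra, Sphk2 and Ttr were named outside this rule, as were Rgs16, Cldn5, Pecam1, Ly6c1 and Slco1a4. A result this rule would name is not reported here.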

Additional observations from a re-analysis of the deposited data

Results flagged for a closer look

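Of 92 groups of 4 libraries examined for the 46 genes named by rule, 2 had a highest or lowest library whose gap to the nearest other exceeded Dixon's 95% critical value for 4 libraries, as a share of the group's range. Chance gives about 1 in 20 groups. No gap of the 10 clock genes passed that value. Ier2, an activity-induced gene, was at 2.305 CPM in BPA 3, above the other BPA animals by a share of 0.97. Kcnj3, a potassium channel gene whose level followed Dbp, was at 285.5 CPM in control 4, above the other controls by a share of 0.895.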

How the results depend on the processing

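edgeR called 0 genes and 0 members under every setting in which it was run (698 genes and 1 member at an unadjusted p under 0.05 with all libraries), while DESeq2 called 7 genes, none of them a member. With log2 library total in the model, the log2 fold changes of Arntl and Per3 were -0.0721 ± 0.13 and -0.0423 ± 0.11, opposite to those without it. Per2 was at 0.0291 ± 0.15 and Dbp at 0.3493 ± 0.24. The SEs of these genes were larger than without library total, which is tied to the groups. In that model 6 members were above 0, the median was 0.0433 and 0 members had an unadjusted p under 0.05. Without control 2 and BPA 3 together, a setting chosen after seeing the data, Clock was at 0.0036, Per1 at -0.0915, Cry2 at -0.0399 and Dbp at -0.0288. The cause of these changes of sign was not tested. On leaving out single libraries the log2 fold change ran from -0.001 to 0.11 for Arntl, from -0.0397 to 0.0122 for Clock, from -0.0389 to 0.19 for Per1, from -0.12 to 0.0113 for Nr1d2 and from -0.0138 to 0.27 for Dbp, while Per2, Per3, Cry1, Cry2 and Nr1d1 stayed above 0. The count of members above 0 ran from 7 to 9 and the median from 0.03 to 0.10. For Arntl against Dbp, r ran from -0.93 to -0.57 and kept its sign in every setting tried.

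Same-numbered control and BPA libraries deviated from their group means with r of -0.37 to 0.07 across genes, and 0 of 8 libraries correlated best with its own number. These values gave no sign that the numbers pair the animals. A pairing by litter could not be tested, since litters are not given. With the replicate block the median log2 fold change of the members was 0.08, edgeR called 0 genes and 0 members, and 498 genes had an unadjusted p under 0.05.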
